A study of Capra hircus with 2 samples.

Results

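miR-135a was read in small RNA from the mammary gland of the dairy goat (Capra hircus), where it was 29.4 times higher in the involution library than in the lactation library (95% counting interval 25.9 to 33.6). Reads of at least 18 nt were assigned to it when they opened with base 1, 2 or 3 of its mature form, carried no mismatch over the shorter of both sequences and ran at most 3 nt longer. A tag is a distinct sequence, and its count is the number of reads that carried it. The rule took 22 tags of the 504338 in both libraries together: 6 of 305711 in lactation and 21 of 259250 in involution. The miRNA was chosen by this ratio, that is by the 5p reads of both libraries, so its levels are a description and carry no test. miR-135b, its closest relative, was sought in the same way.

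The early lactation library came from glands sampled 10 days after birth of the kids. The early involution library came from goats weaned by force in late lactation and sampled 5 days later, 218 days after giving birth. RNA of 5 goats was mixed in equal parts per stage, and the labels name no breed, age or treatment other than weaning. There is 1 library per stage, so the spread between animals is unknown, no test between stages was possible, and weaning and the time since birth cannot be told apart. In whole tissue, fewer cells that hold a miRNA and less of it per cell cannot be told apart either. The libraries held 18031615 and 7385833 clean reads, and 1 read equals 0.0555 and 0.135 reads per 1000000 clean reads (RPM). Of the high-quality reads, 0.0505% in one filtering log of the authors and 14.03% in the other had been removed as 5' adaptor contaminants. The part of this loss in the ratios was not tested. The first log gives the number of clean reads found in the lactation library and the second that found in the involution library.

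Prolactin sustains milk secretion through the prolactin receptor on the alveolar epithelium, which signals to STAT5. miR-135a is named as a regulator of that receptor's mRNA. A miRNA guides Argonaute to mRNAs that pair with its seed, bases 2 to 8. Dicer cuts a hairpin precursor into a duplex of a 5p and a 3p arm, of which usually one is kept. In mammals miR-135a is made from a pair of gene copies with the same 5p arm and different 3p arms, and miR-135b comes from a separate gene.

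The 3 miR-135a arms are shown because the results turn on the contrast between them. Each line gives the commonest tag of that arm over both libraries, with the seed in capitals.
miR-135a-5p: tATGGCTTtttattcctatgtga
miR-135a-2-3p: tGTAGGGAtggaagccatga
miR-135a-1-3p: tATAGGGAttggagccgtggc
The names of the 3p arms are those of the mammalian gene copies, given from general knowledge, since no goat hairpin sequence was used here. Folded against the 5p tag, each 3p tag formed 18 base pairs, with a predicted energy of -21.4 kcal/mol for miR-135a-2-3p and -20.4 kcal/mol for miR-135a-1-3p.

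The 5p arm, the guide strand of miR-135a, had 248 reads in lactation and 2990 in involution. These are 13.8 RPM (12.1 to 15.6) and 405 RPM (390 to 420). The counting intervals lie far apart, but they cover neither animals nor library preparation. Among 707 tag families, each built around a common tag of 20 to 24 nt by the same rule and reaching 10 RPM in a library, miR-135a ranked 413th by lactation reads and 92nd by involution reads. It was thus a rare miRNA in the lactating gland and a moderately abundant one in the involuting gland.

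**Figure D1:**
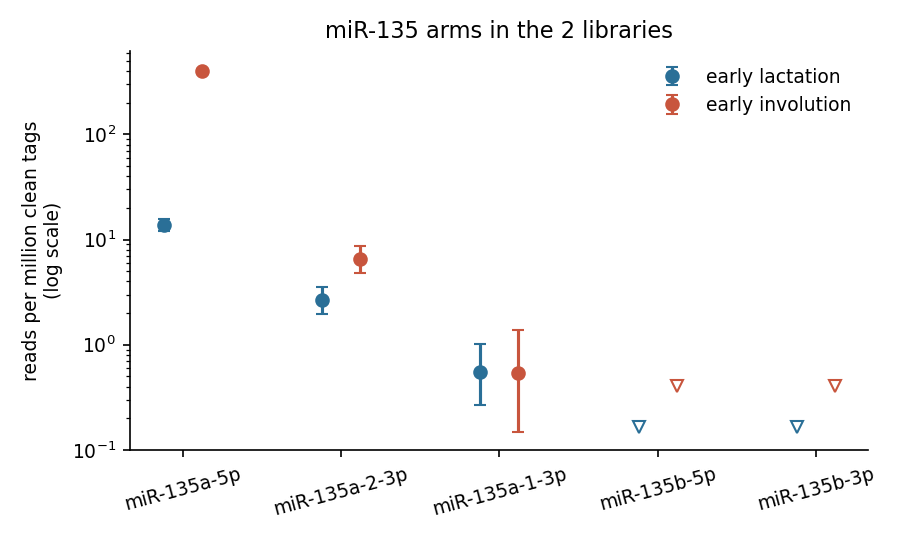
RPM (log axis) of each miR-135 arm in the lactation and the involution library, with 95% Poisson intervals; open triangles mark the limit that a count of 0 allows. The 5p arm of miR-135a stands at 13.8 and 405, its 3p arms lie between 0.542 and 6.50, and miR-135b had no read.

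No read of miR-135b was found in either library. Its 5p arm is known to differ from miR-135a by T11C, counted from 1 at the 5' end and with the miR-135a base first. A count of 0 allows up to 3 reads, equal to 0.166 RPM in lactation and 0.406 in involution. Its 3p arm, sought by its opening and an inner motif, also had 0 reads in both. Allowing 1 mismatch outside the first 8 bases brought no read nearer to miR-135b than to miR-135a. No read carried any single substitution at position 11, whereas in involution 17 other positions did, not counting changes at a tag's last base.

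The 3p arms were not used in choosing the miRNA, and their ratios between the libraries were lower than that of the 5p arm. Since the 5p ratio was the reason for the choice, a lower ratio in the other arm is given as a description. miR-135a-2-3p had 48 reads in lactation and 48 in involution, or 2.66 RPM (1.96 to 3.53) and 6.50 (4.79 to 8.62). That is 2.44 times higher in involution (1.60 to 3.72), or 1.59 times (1.04 to 2.42) with median-of-ratios factors and 1.53 times (1.003 to 2.33) with TMM factors. miR-135a-1-3p had 10 and 4 reads, or 0.555 and 0.542 RPM, and the interval of its ratio of 0.977 ran from 0.224 to 3.39. At this depth no direction could be read for it. In both libraries miR-135a-2-3p had more reads than miR-135a-1-3p.

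The balance of the arms within each library does not depend on how the libraries are scaled to each other, but it holds the 5p reads that the miRNA was chosen by and describes these 2 libraries. In lactation there were 4.28 reads of the 5p arm for each read of the 3p arms together (3.20 to 5.79). In involution there were 57.5 (43.7 to 77.2), 13.4 times as many. The 5p arm made up 81.0% of miR-135a reads in lactation (76.2 to 85.3%) and 98.3% in involution (97.8 to 98.7%).

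Many 3p reads start 1 base before the commonest tag and fall outside the rule. Counting every tag that holds bases 2 to 15 of an arm took them in. The 3p arms then had 97 reads in lactation and 68 in involution, and the 5p arm had 252 and 3159. The balance became 2.60 (2.05 to 3.32) in lactation and 46.5 (36.5 to 60.0) in involution, 17.9 times as many. Reads that start 1 base earlier made up 28.6% of such miR-135a-2-3p reads in lactation and 22.6% in involution. For miR-135a-1-3p they were 16 of 27 reads (59.3%) and 2 of 6. In lactation most reads of that arm thus carry a seed shifted by 1 base from the one printed in capitals. Counted this way its ratio was 0.543 (0.183 to 1.34), still without a direction. For the 5p arm they made up 0% and 1.36%, so its start, and with it the seed, was the more uniform.

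Other miRNAs were examined for the same contrast after their values had been seen, each arm being recognised by its first 11 bases. Of 9 other pairs sought, 7 had reads of both arms, and in 4 of these the ratios of the arms were at least 10-fold apart. These 4 are among the miRNAs taken up because 1 arm had a ratio close to that of miR-135a, so that a high arm was given by the choice. Of the 3 pairs with both arms that were not taken up that way, miR-142, miR-126 and miR-199a, none was 10-fold apart. Among the 4 pairs at least 10-fold apart was miR-193a, which acts on growth-promoting mRNAs in epithelium. Its 3p arm was 59.0 times higher in involution (41.8 to 85.7). Its 5p arm stood at 1.07 times (0.953 to 1.19), or 0.694 and 0.668 under the median-of-ratios and TMM scalings. For the erythroid miR-144 the 3p arm was 31.7 times higher (23.3 to 44.4) and the 5p arm 2.18-fold lower. In the smooth muscle miRNA miR-145 the 5p arm was 9.28 times higher (8.91 to 9.68) and the 3p arm 1.62-fold lower. The 3p arm of miR-342, a leukocyte miRNA, was 10.98 times higher (9.71 to 12.4) and its 5p arm 1.58-fold lower. The ratios of the arms were 55.3-fold apart for miR-193a, 69.3-fold for miR-144, 17.3-fold for miR-342 and 15.05-fold for miR-145, beside 13.4-fold or 17.9-fold for miR-135a by the 2 ways of counting.

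**Figure D2:**
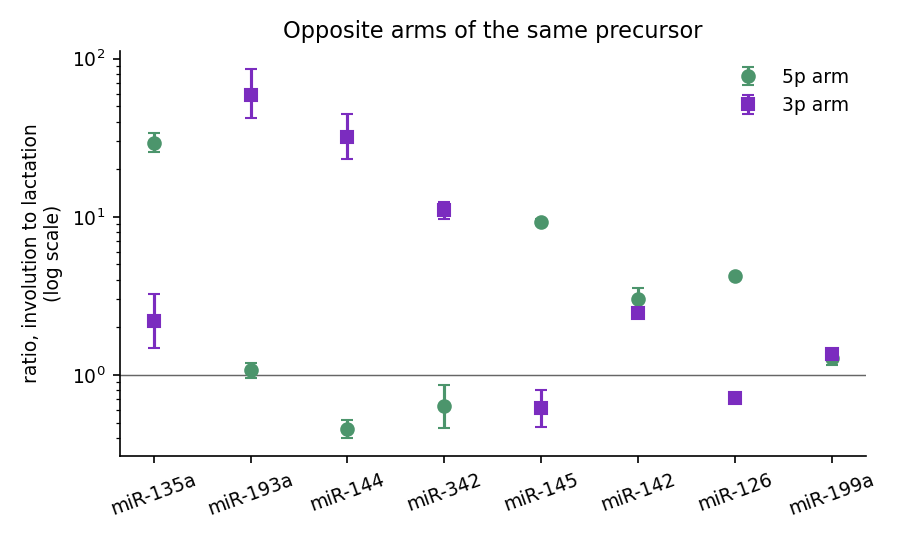
Ratio of involution to lactation (log axis) for the 5p and the 3p arm of 8 miRNAs, with 95% counting intervals; the line marks a ratio of 1. For miR-135a, miR-193a, miR-144, miR-342 and miR-145 one arm lies at 9.28 or above and the other at 2.19 or below, whereas both arms of miR-142 and of miR-199a lie together.

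Not every pair behaved so. Both arms of the leukocyte miRNA miR-142 were higher, the 5p at 3.01 times (2.56 to 3.55) and the 3p at 2.46 times (2.33 to 2.60). Both were short of 2-fold under the other scalings, at 1.96 and 1.60 with median-of-ratios factors and 1.89 and 1.54 with TMM factors. Those of the stromal miR-199a stood at 1.28 and 1.36, and turned to 0.835 and 0.883 under median-of-ratios scaling and below 1 under TMM scaling too. In the endothelial miR-126 the 5p arm stood at 4.23 and the 3p arm at 0.716, 5.90-fold apart. For miR-223 and miR-375 no read of the 5p arm was found by its opening bases. The arm tags of miR-135a and of the 4 pairs at least 10-fold apart are set out for comparison, with the seed in capitals.
miR-135a-5p, the higher arm: tATGGCTTtttattcctatgtga
miR-135a-2-3p: tGTAGGGAtggaagccatga
miR-193a-3p, the higher arm: aACTGGCCtacaaagtcccagt
miR-193a-5p: tGGGTCTTtgcgggcgagatga
miR-144-3p, the higher arm: tACAGTATagatgatgtactct
miR-144-5p: gGATATCAtcatatactgtaag
miR-342-3p, the higher arm: tCTCACACagaaatcgcacccatc
miR-342-5p: aGGGGTGCtatctgtggttgagg
miR-145-5p, the higher arm: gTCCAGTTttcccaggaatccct
miR-145-3p: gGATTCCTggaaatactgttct
The GC content of the higher arm was 30.4% for miR-135a against 50% for miR-135a-2-3p, 50% against 59.1% for miR-193a, 31.8% in both arms of miR-144, 50% against 56.5% for miR-342 and 52.2% against 40.9% for miR-145. For miR-126 it was 38.1% against 45.5%. The higher arm was thus poorer in G and C for miR-135a, miR-193a, miR-342 and miR-126, equal for miR-144 and richer for miR-145.

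The reads of the 5p arm differ mostly at the 3' end. All 248 lactation reads and 99.0% of the involution reads (98.6 to 99.3%) started at the first base. Of the involution reads inside the rule, 24 lacked 1 base and 5 lacked 2, which would shift the seed. The commonest tags are shown in order of reads, to set their 3' ends side by side.
23 nt: tATGGCTTtttattcctatgtga
22 nt: tATGGCTTtttattcctatgtg
21 nt: tATGGCTTtttattcctatgt
24 nt: tATGGCTTtttattcctatgtgaa
20 nt: tATGGCTTtttattcctatg
The 23-nt tag had 209 reads in lactation and 2043 in involution. The 22-nt tag had 30 and 627 reads, and the 21-nt tag 2 and 173. The 24-nt tag, with an A added, had 2 and 71 reads, and the 20-nt tag 4 and 22.

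Shorter tags took a larger share in involution. Tags that end before the last base of the 23-nt form made up 14.5% of miR-135a reads in lactation (10.4 to 19.5%) and 27.9% in involution (26.3 to 29.5%). The 23-nt tag itself made up a smaller share, 84.3% (79.1 to 88.6%) in lactation and 68.3% (66.6 to 69.99%) in involution. Counted alone it was 23.9 times higher in involution (20.7 to 27.6), the 22-nt tag 51.0 times (35.4 to 76.3). Tags longer at the 3' end made up 1.21% (0.25 to 3.49%) and 3.21% (2.61 to 3.91%), and 73 of the 80 involution reads with exactly 1 base more ended in A. Whether such a base is encoded in the hairpin was not analysed here. Among 142 other families with at least 1000 reads in both libraries, 69 had a larger share of shorter tags in involution. Their median difference was -0.16 percentage points, with quartiles at -3.44 and 3.98, against 13.3 points for miR-135a. With 248 reads in lactation miR-135a fell short of that limit, so its difference carries more counting error than theirs.

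**Figure D3:**
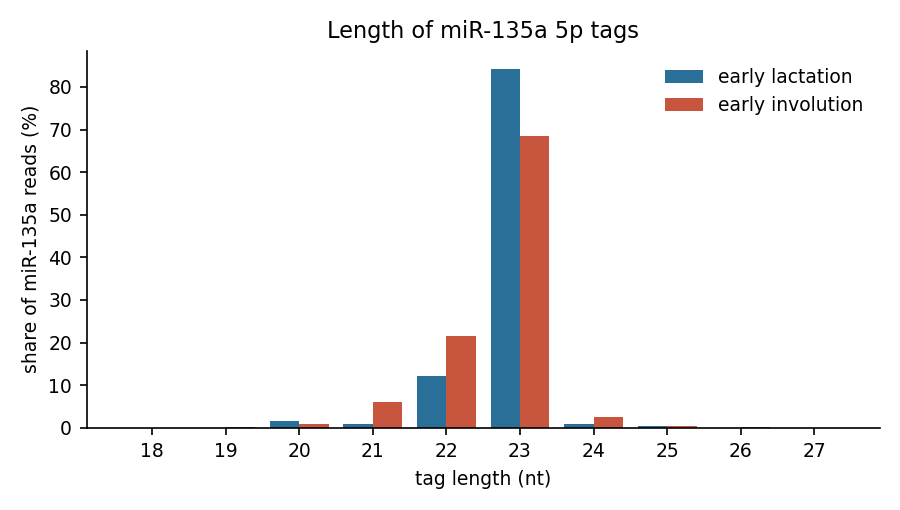
Share of miR-135a 5p reads (percent) by tag length (nt) in the lactation library (248 reads) and the involution library (2990 reads). The 23-nt form dominates both, and the 22-nt and 21-nt forms take more of the involution reads.

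Few reads lay just outside the rule. Tags within its length limits that differ from the 23-nt sequence at exactly 1 base numbered 5 reads in lactation and 111 in involution, or 2.02% and 3.71% of the reads inside it. In involution 64 of them differed at the last base of the tag, and 51 were A23T, the 22-nt form followed by T. Few other reads held its seed: of reads with ATGGCTT at bases 2 to 8, miR-135a made up 93.6% in lactation and 95.1% in involution. Of the others, those without the first 15 bases of miR-135a numbered 13 and 62 reads, and none of their tags exceeded 7 reads in a library.

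The ratio of miR-135a was set against those of all tag families. A family was called higher when its ratio was at least 2, lower when at most 0.5, with the whole interval beyond 1 and at least 10 RPM in a library. Of 707 families, 297 were called higher (42.0%) and 33 lower (4.67%), with a median log2 ratio of 0.66. miR-135a is one of the 297, and since its ratio was the reason for the choice, nothing is read from that. With median-of-ratios factors every log2 ratio moved by -0.62, and 209 families were higher and 119 lower. With TMM factors the shift was -0.67, with 204 higher and 134 lower. The ratio of miR-135a was then 19.1 and 18.4. A ratio at least as high was found in 43 families (6.08%), with miR-135a itself counted, and 20 of them had no lactation read. Among the 159 families with 1000 or more involution reads it was found in 2, miR-135a being one of the pair. The ratio was the reason for the choice, and the 159 were set by involution reads, where miR-135a is high. Nothing is read from these counts either. The families were not annotated and can hold fragments of other RNAs.

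The share of families called higher was largest in the class of lowest GC content. The 5p tag of miR-135a has a GC content of 30.4%. Of the 58 families with at most 35% GC, 38 were called higher (65.5%), with a median log2 ratio of 1.99. In the next class, above 35 and up to 45%, 60 of 144 were called higher (41.7%). Above 45 and up to 55% it was 91 of 264 (34.5%), and above 55% it was 108 of 241 (44.8%). Across 687 families with reads in both libraries Spearman's rho between GC content and log2 ratio was 0.01, given as a description of families that share libraries. The part of base composition in the ratio of miR-135a was not tested.

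**Figure D4:**
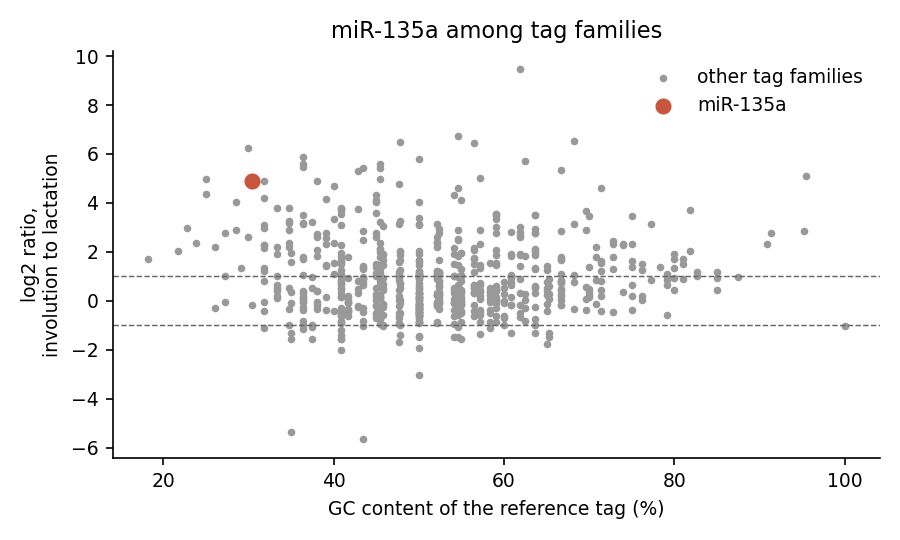
Log2 ratio of involution to lactation against the GC content (percent) of the reference tag for families with reads in both libraries; dashed lines mark 2-fold. miR-135a, at 30.4% GC, has a log2 ratio of 4.88; most families of low GC content lie below it.

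Among 41 groups of reads that share the opening bases of a known miRNA and reach the level limit, 17 were called higher (41.5%) and 1 lower (2.44%). miR-135a, counted by its own assignment rule, ranked 2nd of these by ratio, which was the reason for its choice. Median-of-ratios and TMM scaling each gave 14 higher and 10 lower. The 6 closest in log2 ratio over the 2 libraries were, in order of distance, miR-193 at 0.13, miR-144 at 0.31, miR-375 at 0.69, miR-342 at 1.43, miR-145 at 1.66 and miR-223 at 1.87. Apart from miR-375, with 286 RPM in lactation, and miR-145, with 161, these stood at 3.27 to 19.4 RPM in lactation. The 6 were picked for a high ratio, and 10 RPM in 1 library was enough. miR-193 and miR-144 reached it in involution only. Low lactation levels were thus partly given by the choice, and nothing is read from them. Of the 6, miR-375 is a miRNA of secretory and endocrine epithelium, miR-145 of smooth muscle and miR-144 of erythroid cells. Both miR-342 and miR-223 are leukocyte miRNAs, miR-223 of granulocytes.

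The miRNA neighbour of MIR135A did not share the ratio of the miR-135a 5p reads, a sum over gene copies. MIR135A, as RefSeq places it on the goat assembly ARS1.2, lies within 50 kb of MIRLET7G, which encodes let-7g, a member of the let-7 family that represses growth-promoting mRNAs. let-7g had 4364 RPM in lactation and 4621 in involution, a ratio of 1.06 (1.05 to 1.07) that became 0.689 and 0.663, below 1, when scaled by median-of-ratios and by TMM. RefSeq lists 1 MIR135A entry beside MIR135B, and the 5p reads cannot be divided between gene copies because their sequence is the same. Which copy this entry is was not determined here, so the ratio of the copy beside let-7g is unknown.

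Other miRNAs reported to act on the prolactin receptor did not all lie in one direction. Beside miR-135a, miR-142-3p had 139 RPM in lactation and 343 in involution, 2.46 times higher (2.33 to 2.60), or 1.60 and 1.54 times under the other 2 scalings, short of 2-fold. miR-138 had 8.54 and 3.38 RPM, 2.52-fold lower, on 154 and 25 reads and under the level limit. In lactation miR-142-3p was the most abundant of these miRNAs, and in involution miR-135a was.

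miRNAs tied to mammary growth, secretion or involution were measured as groups with the same opening bases, so that members of a family are summed. Of all 41 named groups, 17 were higher (41.5%) and 1 lower (2.44%). Of the 10 mammary groups, 9 reached the level limit, 1 was higher, 1 lower and 7 between. Their median log2 ratio was -0.29 against 0.76 for all 41 groups. The higher was miR-193, at 3.77 and 122 RPM. The list names it for miR-193b, known as a STAT5 target in mammary epithelium, but of the group's 68 and 899 reads 34 and 821 opened as miR-193a-3p. The lower was the milk miRNA family of miR-148 and miR-152, at 60092 and 27111. With either of the other scalings 3 of the 9 were lower, the miR-30 and miR-126-3p groups joining it, beside 10 of all 41. The group of miR-15, miR-16 and miR-424, restrainers of the cell cycle, stood at 1.61 times, or 1.05 and 1.01 under the other scalings, and that of miR-30 at 0.638. Of 9 milk fat groups, one of them the miR-15 group again, 3 were higher and 6 between, with a median of 0.69, beside 41.5% of all named groups higher and their median of 0.76. The higher were miR-33, a regulator of cholesterol export, at 5.50 times, the miR-130 and miR-301 group at 4.09 and the miR-141 and miR-200a group at 2.27. Under the other scalings 2 were higher and 1, miR-181, lower, beside 14 and 10 of all 41.

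Marker groups of cell types were read in the same way, and their part in the ratio of miR-135a was not tested. Their counts stand beside the 17 of 41 named groups (41.5%) called higher in all, and nothing particular to a cell type is read from them. Of 8 epithelial groups 7 reached the limit, 3 were higher (miR-375, miR-205 and the miR-141 and miR-200a group) and 4 between, with a summed level of 22030 RPM in lactation and 27221 in involution. The defining group of miR-200b, miR-200c and miR-429 stood at 18299 and 14994, so epithelial miRNAs were abundant in both libraries. Of 6 leukocyte groups 5 were higher and miR-155 was between. Their sums were 1425 and 1541, of which miR-155 made up 1217 and 705. Of 3 erythroid groups 2 were higher, with sums of 960 and 3241. Of 5 stromal and smooth muscle groups 2 were higher. Their sums were 325484 and 336731, of which miR-143 made up 320324 and 331583. The endothelial miR-126-3p was between, and so was the miR-1 and miR-206 group of skeletal muscle, the other one, miR-133, being under the limit. Liver miR-122 had 1.11 and 5.96 RPM, under the limit. Of the neural groups miR-9 was 4.80 times higher at 12.7 and 60.9 RPM, miR-128 was between, and miR-124 had 1 read in lactation and 8 in involution. Under both other scalings the counts were 2 higher and 3 lower for epithelial, 3 and 1 for leukocyte, 2 and 0 for erythroid and 2 and 1 for stromal groups, and miR-126-3p was lower. Over all 41 named groups they were then 14 and 10.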

How the data were processed

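Small RNA was sequenced in 1 pooled library per stage. The deposited files hold raw counts of reads per distinct tag. Before deposit, per the authors' deposited notes, reads of low quality were dropped, 3' adaptors cut off, reads with 5' adaptor discarded, and inserts below 18 nt or of polyA left out. Mapping, tool versions and genome build: not given in the sources used here. RNA of 18 to 30 nt was selected, per the labels, while tags run to 44 nt.

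No table of mature miRNAs was given, so sequences were read from the deposited tags. For each miR-135 arm, the most frequent tag that starts with one 7-base key and holds another became the reference. Keys came from general knowledge: TATGGCT and TATGTGA for miR-135a-5p. Named groups are reads of 18 to 26 nt that open with the first 8 bases of a miRNA (11 for miR-9, miR-96, miR-122, miR-124, miR-128, miR-133 and miR-138). The miR-135 group instead holds the reads that the assignment rule gave to miR-135a-5p. These groups and the tag families replace the miRNA table planned for the background. Families were built from tags of 20 to 24 nt, at 1 RPM or more summed over both libraries, most frequent first. A family was set aside if it repeated 16 bases near the start of an earlier reference or differed by 1 base in the first 18 from one 50 times as abundant, which took 4021. Levels (RPM) are reads per 1000000 clean tags, computed here from those counts. Intervals are 95%: exact Poisson for levels, Clopper-Pearson for shares and, conditionally, for ratios. Reads had no molecular identifiers, so intervals and limits cover counting error only.

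Named miRNAs were, by rule, the members, their neighbours within 50 kb, the 6 closest in log2 ratio and the fixed lists; opposite arms were added after values had been seen. Members and lists were chosen with earlier results of these data known. The interval, call and assignment steps were tested on simulated data. Alternatives covered scaling, assignment, filters, the fold and thinning. Tools were Python 3.11.15, numpy 2.4.6, scipy 1.17.1, ViennaRNA 2.7.2 and, for TMM factors, edgeR 4.0.16 in R 4.3.3.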

Additional observations from a re-analysis of the deposited data

How the results depend on the processing

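The ratio of miR-135a stayed between 18.4 and 30.6 under every alternative run. It was 23.9 with identical tags only, 19.1 with median-of-ratios factors and 18.4 with TMM factors. Identical tags alone gave a level of 11.6 RPM in lactation and 277 in involution, and bases 2 to 15 anywhere in the tag gave 428 in involution. Counted that way, the 5p arm had 2.60 reads per 3p read in lactation. The ratio of miR-135a-2-3p was 1.59 under median-of-ratios scaling and 1.53 under TMM. The count of families called higher was 165 with identical tags only, 714 with no minimum level, 79 with a minimum of 100 RPM and 166 with a 4-fold limit. Those called lower numbered 119 with median-of-ratios factors, 134 with TMM factors, 87 with no minimum, 11 with a minimum of 100 and 4 with a 4-fold limit. Over named groups the counts were 17 and 1, since fewer were tested. miR-135b stayed at 0 reads. The cause of the moves with identical tags was not tested. No paired analysis was possible because each stage has 1 library. Depth limits the 3p arms most, with 10 and 4 reads for miR-135a-1-3p.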
